A study of Mus musculus with 4 samples.

Results

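Smooth muscle contractile genes and mural cell genes were followed in cells from tumour-draining lymph nodes of mice. The 34 genes were given as a list, and a gene was included when a probe set of the array was annotated with its symbol alone. All 34 were found, on 72 of the 45037 probe sets tested, out of 18193 genes in all, and the brightest probe set over the 4 arrays stood for each gene.

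The 4 arrays came from 2 groups of female SCID/NOD mice aged 6 to 8 weeks, a strain background that lacks mature T and B cells. In the metastatic group (2 arrays) the nodes drained subcutaneous tumours of 293-VEGF-D cells, a human embryonic kidney line that overexpresses the lymphatic growth factor VEGF-D, and only enlarged nodes were taken. In the non-metastatic group (2 arrays) they drained tumours of 293-Apex cells, of the same line. The left axillary node was removed 3 to 4 weeks after injection at tumour volumes of 1600 to 2500 mm3, each preparation pooled nodes of 1 to 5 mice, and the digested cells were cultured briefly in an endothelial growth medium and selected on beads for podoplanin. Podoplanin is carried by lymphatic endothelium and also by fibroblastic reticular cells, the stromal fibroblasts of the node. The sorting label, unlike the growth protocol, which gives the depletion without separating the groups, says that tumour cells and leukocytes were depleted beforehand in the metastatic preparations and that nothing was depleted in the non-metastatic ones. Metastasis, VEGF-D, enlarged nodes and depletion cannot be told apart here.

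Smooth muscle cells contract when calcium, bound to calmodulin, activates myosin light chain kinase, which phosphorylates the regulatory light chain of myosin and lets myosin pull on actin thin filaments. Myosin phosphatase reverses the step, and its inhibitors hold the muscle in tension. Serum response factor, with its coactivator myocardin, switches on many of the contractile genes through a short DNA element called the CArG box. Pericytes and smooth muscle cells, together called mural cells, wrap vessels, and activated fibroblasts, fibroblastic reticular cells among them, also make smooth muscle actin.

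The markers of the labelled cell type were checked first. The median mean signal of all probe sets was 5.95 on the log2 scale, and 65.5% of all genes lay above it. Of the blood endothelial markers 5 of 12 lay above it, and of the lymphatic ones 5 of 9. The lymphatic regulator Prox1 had log2 signals of 4.12 and 3.74 on the metastatic arrays and 4.17 and 3.96 on the non-metastatic arrays. Fibroblastic reticular markers were above that median for 10 of 11 genes, and Pdgfrb, a receptor of fibroblasts and mural cells, had 12.38 and 12.13 against 12.26 and 12.30. Signals of different probe sets differ in scale, so these values do not rank the cell types of the preparations. In such bulk samples fewer cells of a type and less RNA per cell cannot be told apart.

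Most contractile genes had lower signals in the metastatic group. The 4 potassium and calcium channel genes of the list had small differences at signals near or under the median. Probe sets of most of these channel genes differed in sign, so no direction can be given for those. Of the 34 genes, 30 had a negative difference (metastatic minus non-metastatic), where 50.1% of all genes did, and 4 had a positive one (background 49.9%). The median difference was -0.43 on the log2 scale, beside -0.00034 over all genes. Both metastatic arrays lay below both non-metastatic arrays for 24 of the 34 (70.6%), where 17.3% of all genes did so. The opposite order held for 1, the channel subunit gene Kcnmb1, where the background was 17.2%. A difference of at least 2-fold downward was seen for 7 genes (background 0.704%), namely Mylk, Ppp1r14a, Actg2, Myl9, Myocd, Cnn1 and Mcam, and none was at least 2-fold higher (background 0.242%).

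**Figure D1:**
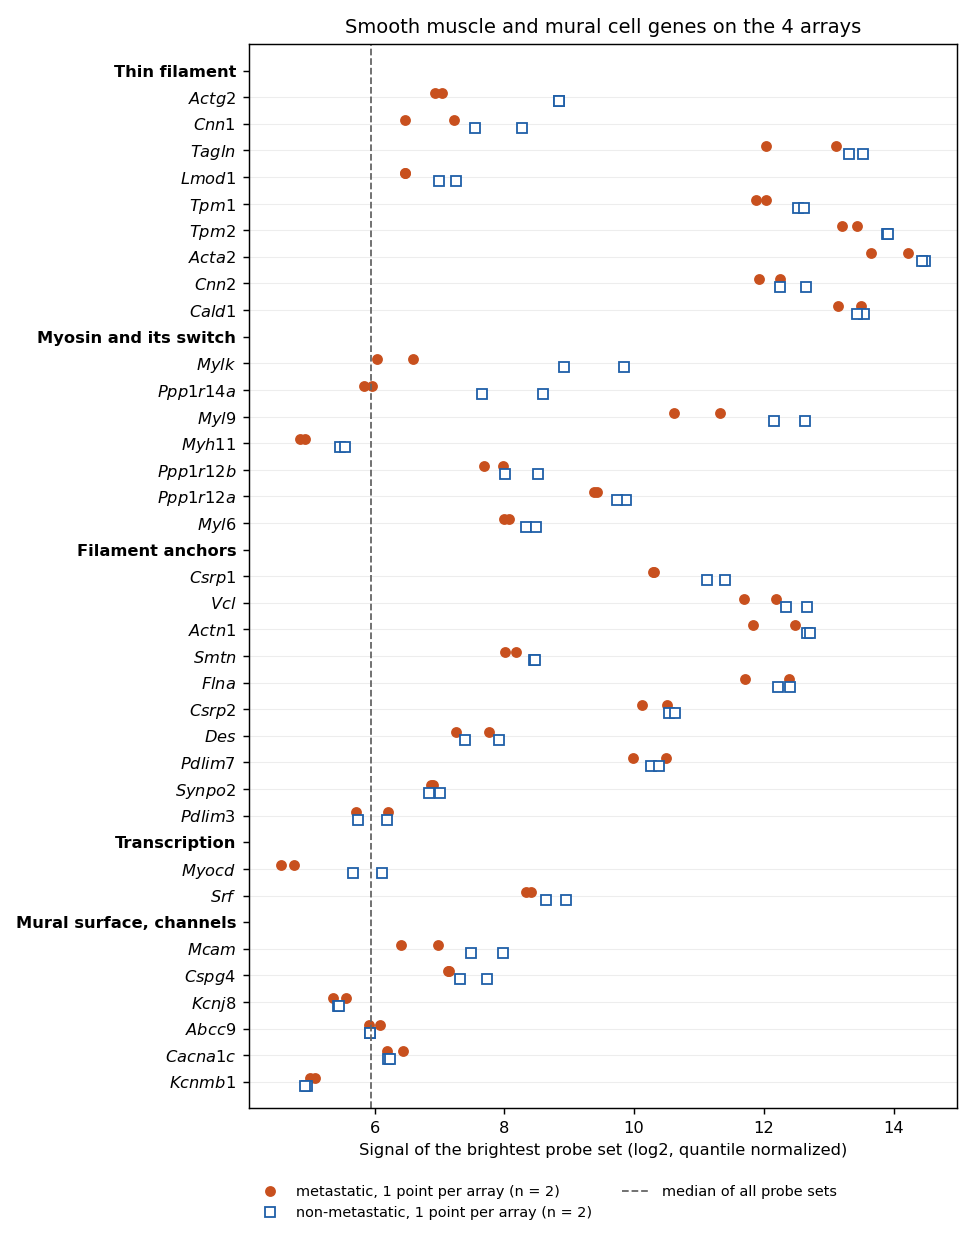
Log2 signal of each gene on each array (x axis) for the 34 smooth muscle and mural cell genes (y axis, by role), with filled circles for the 2 metastatic arrays and open squares for the 2 non-metastatic arrays. The circles lie left of both squares for 24 genes, furthest for Mylk (6.59 and 6.04 against 9.84 and 8.92), and the dashed line marks the median of all probe sets, 5.95.

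No single gene passed limma with Benjamini-Hochberg adjustment over all probe sets at 0.05: 0 of 34 were called (background 0%), and the smallest adjusted p among them was 0.0863, for Actg2. At an unadjusted p under 0.05 there were 18 lower genes (52.9% of the list, background 4.07%) and 0 higher ones (background 2.63%). With 2 arrays a group an exact two-sided permutation test cannot go below 0.33, so each gene is given below by its values and its standard error (SE). Signals are log2 throughout, and differences are metastatic minus non-metastatic on that scale.

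Both transcription factor genes of the list were lower in the metastatic group. Myocd, which encodes the coactivator myocardin, had signals of 4.56 and 4.76 in the metastatic group, against 5.67 and 6.11 in the non-metastatic group, a difference of -1.23 (SE 0.18, limma adjusted p = 0.279). The groups did not overlap, but 3 of the 4 values are under the median of all probe sets, and the other Myocd probe set, with a mean of 4.99, had a difference of -0.16 (SE 0.14). Srf, which encodes serum response factor, had 8.34 and 8.41 against 8.64 and 8.95, a difference of -0.42 (SE 0.14), through a probe set whose name marks it as not specific to 1 transcript. Its unmarked probe set was also lower in both metastatic arrays, by a difference of -0.21 (SE 0.13). Without non-metastatic replicate 2 the Srf difference was -0.27.

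Promoters were read for CArG boxes because Srf and many genes it binds are in the list. RefSeq promoter windows of build GRCm38.p6, covering 250 bases before to 50 after a gene's start, were matched for 29 of the 34 genes in 35 windows. A full CArG box is CC, then 6 bases that are each A or T, then GG, a pattern that is its own reverse complement, so reading 1 strand covers both. It was present in windows of 5 genes (17.2% of the 29), Cnn2, Myl6, Myl9, Srf and Vcl, and in 5 of the 35 windows (14.3%), against 1.63% of all 32851 windows and 1.81% of 27025 genes. In all 5 genes both metastatic arrays lay below both non-metastatic arrays, as in 24 of the 34 listed genes (70.6%) and 17.3% of all genes, and whether box-bearing genes differ from the others was not tested. The windows are printed 5′ to 3′ on the gene's strand, with each CArG box in capitals, to show where the box lies in each.
Srf, chr17:46556113-46556412, minus strand: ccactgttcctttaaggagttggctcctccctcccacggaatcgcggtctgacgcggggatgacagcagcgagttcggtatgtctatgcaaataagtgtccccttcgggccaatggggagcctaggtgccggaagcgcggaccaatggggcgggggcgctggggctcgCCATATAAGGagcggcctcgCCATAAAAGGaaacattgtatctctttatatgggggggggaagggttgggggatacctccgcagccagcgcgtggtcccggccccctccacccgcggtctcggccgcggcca
Myl9, chr2:156775214-156775513, plus strand: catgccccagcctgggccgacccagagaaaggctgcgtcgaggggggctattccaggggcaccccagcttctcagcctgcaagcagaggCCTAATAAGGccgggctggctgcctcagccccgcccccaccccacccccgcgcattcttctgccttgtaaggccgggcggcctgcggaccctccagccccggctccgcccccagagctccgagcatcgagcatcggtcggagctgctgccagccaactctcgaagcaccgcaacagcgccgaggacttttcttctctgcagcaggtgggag
Vcl, chr14:20929148-20929447, plus strand: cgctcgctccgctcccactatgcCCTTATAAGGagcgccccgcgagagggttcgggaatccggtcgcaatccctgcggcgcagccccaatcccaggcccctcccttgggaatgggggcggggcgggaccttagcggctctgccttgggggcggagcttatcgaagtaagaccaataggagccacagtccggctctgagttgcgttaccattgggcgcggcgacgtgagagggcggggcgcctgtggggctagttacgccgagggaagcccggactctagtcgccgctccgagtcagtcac
Cnn2, chr10:79988350-79988649, plus strand: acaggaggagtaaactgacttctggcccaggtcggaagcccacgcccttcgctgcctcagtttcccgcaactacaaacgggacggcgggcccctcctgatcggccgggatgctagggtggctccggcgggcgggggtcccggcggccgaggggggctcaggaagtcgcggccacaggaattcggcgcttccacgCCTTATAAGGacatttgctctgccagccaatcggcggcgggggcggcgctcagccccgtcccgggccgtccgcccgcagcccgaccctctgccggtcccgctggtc
Myl6, chr10:128492960-128493259, minus strand: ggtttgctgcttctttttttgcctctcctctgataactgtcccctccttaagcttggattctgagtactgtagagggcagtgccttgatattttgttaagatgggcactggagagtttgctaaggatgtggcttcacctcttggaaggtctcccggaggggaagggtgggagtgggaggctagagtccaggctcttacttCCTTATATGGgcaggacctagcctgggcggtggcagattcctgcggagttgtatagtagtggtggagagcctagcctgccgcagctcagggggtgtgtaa
Srf held a pair of boxes, beginning 82 and 62 bases before the start, and the boxes of Myl9, Vcl, Cnn2 and Myl6 began 161, 227, 56 and 50 bases before it. Myl6 has another start whose window held none. These are letter matches, and nothing was measured here about binding to them. Actg2, Tagln, Myh11, Myocd and Csrp2 were not matched.

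Thin filament genes were lower in the metastatic group for all 9 members, and 8 of the 9 did not overlap between groups (background 17.3% of all genes). Actg2, the gamma smooth muscle actin of gut and bladder muscle, had 7.04 and 6.93 in the metastatic group, against 8.84 and 8.85 in the non-metastatic group. The replicates of each group lay closer together for Actg2 than for any other gene with a 2-fold difference, and its difference was -1.86 (SE 0.11), or 3.63-fold lower. It had the second smallest p of the 18193 genes. Acta2, the alpha smooth muscle actin, was among the brightest genes of the arrays, with 13.66 and 14.22 against 14.49 and 14.45, close to the highest deposited signal, 14.81, where differences can be compressed. The difference of Acta2 was -0.53 (SE 0.20, limma adjusted p = 0.774), and it was -0.25 without metastatic replicate 1 and -0.81 without metastatic replicate 2. That probe set is marked in the same way, and 2 unmarked but dim ones, with means of 5.08 and 4.73, had differences of -0.45 (SE 0.17) and -0.65 (SE 0.12).

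Proteins that sit on the actin filament followed the same order. Tagln, which encodes the actin-bundling protein transgelin, had 12.03 and 13.12 against 13.52 and 13.31, a difference of -0.84 (SE 0.34). Metastatic replicate 1 was the low array: the difference of Tagln was -0.30 without it and -1.38 without metastatic replicate 2. Cnn1, which encodes calponin 1, an inhibitor of myosin's ATPase in smooth muscle, had 6.47 and 7.23 against 7.54 and 8.26. Its difference was -1.06 (SE 0.33), and it became -0.66 when metastatic replicate 1 was left out and -0.70 when non-metastatic replicate 2 was. Lmod1, a leiomodin that starts new actin filaments in smooth muscle, had 6.47 on both metastatic arrays, against 7.00 and 7.26, a difference of -0.66 (SE 0.13). The spread between replicates of Lmod1 was thus smaller than the gap between groups. Cnn2, the calponin found in many cell types, had a smaller difference of -0.37 (SE 0.18), which moved to -0.20 without metastatic replicate 1. It was -0.56 without the first non-metastatic array and -0.17 without the second.

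Tropomyosins lie along the actin filament and set where myosin can bind. Tpm1 had 11.87 and 12.04 in the metastatic group, against 12.53 and 12.61 in the non-metastatic group, a difference of -0.62 (SE 0.12). Tpm2 had 13.20 and 13.44 against 13.90 and 13.91, a difference of -0.58 (SE 0.13), and neither gene overlapped between groups. The other 3 probe sets of Tpm2 had differences of -0.66, -0.74 and -0.80. Of the other 3 of Tpm1, those with means of 12.01 and 7.36 had -0.57 and -0.55, and the dimmest, with a mean of 3.92, had 0.04 (SE 0.12). Cald1, which encodes caldesmon, was the thin filament gene whose groups overlapped, with 13.15 and 13.50 against 13.54 and 13.43. Its difference was -0.16 (SE 0.15), and without metastatic replicate 1 it turned to 0.01, while it was -0.33 without metastatic replicate 2.

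Myosin and its on-off switch held the most negative differences of the list. All 7 genes were lower without overlap between groups (background 17.3%), and 3 by at least 2-fold (background 0.704%). Mylk, the myosin light chain kinase gene, had 6.59 and 6.04 in the metastatic group, against 9.84 and 8.92 in the non-metastatic group. Its difference of -3.07 (SE 0.34, limma adjusted p = 0.185), or 8.38-fold lower, was the second most negative of the 18193 genes. The 3 probe sets of Mylk went the same way by very different amounts, since the one with a mean of 6.21 had -1.65 (SE 0.33) and the dimmest, with a mean of 5.07, had -0.18 (SE 0.15). Mylk makes a long and a short kinase and telokin from separate promoters, and the files do not say which transcript each probe set reads. Ppp1r14a, or CPI-17, which inhibits myosin phosphatase, had 5.84 and 5.96 against 7.66 and 8.59. Its difference was -2.23 (SE 0.30), and both metastatic values were close to the median of all probe sets.

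The regulatory light chain and the heavy chain of smooth muscle myosin were lower as well. Myl9, the light chain that the kinase phosphorylates, had 10.62 and 11.32 against 12.16 and 12.63, a difference of -1.42 (SE 0.27), or 2.68-fold lower. Myh11, the smooth muscle myosin heavy chain and the most specific marker of mature smooth muscle, was dim, with 4.93 and 4.85 against 5.46 and 5.55. Its difference was -0.61 (SE 0.11), and the other Myh11 probe set, dimmer still with a mean of 4.67, had -0.05 (SE 0.12). The essential light chain gene Myl6, which non-muscle myosin also uses, had 7.99 and 8.08 against 8.33 and 8.48, a difference of -0.38 (SE 0.12).

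The targeting subunits of myosin phosphatase, which bring the enzyme to myosin, were lower by less. Ppp1r12a, the widely expressed subunit, had 9.38 and 9.43 against 9.88 and 9.74, a difference of -0.41 (SE 0.11). Its other 3 probe sets had differences between -0.29 and -0.08. Ppp1r12b, a form of muscle, had a difference of -0.43 (SE 0.21), which was -0.28 without metastatic replicate 2. It was -0.70 without the first non-metastatic array and -0.18 without the second. The other probe sets of Ppp1r12b had -0.22 (SE 0.15), 0.02 (SE 0.18) and, for the dimmest, 0.09 (SE 0.15), so the direction was not shared.

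**Figure D2:**
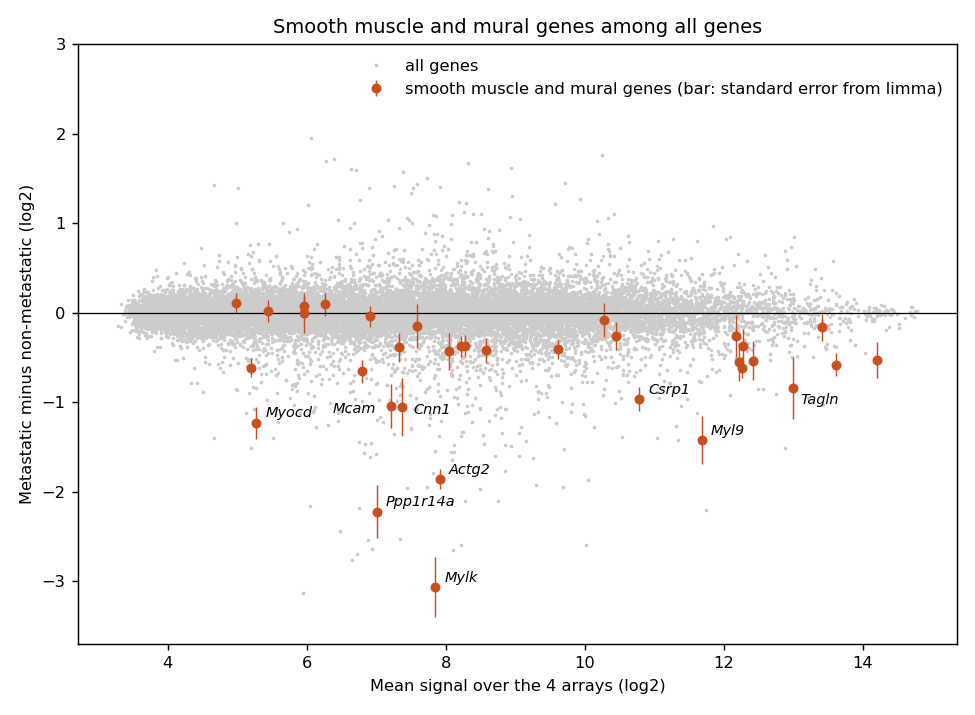
Difference between metastatic and non-metastatic arrays (log2, y axis) against mean signal over the 4 arrays (log2, x axis), with all 18193 genes in grey and the 34 smooth muscle and mural cell genes in orange with standard errors from limma. Mylk (-3.07), Ppp1r14a (-2.23) and Actg2 (-1.86) lie lowest, and the orange points are spread over dim and bright signals.

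Genes that anchor filaments to membranes and to each other were divided. Csrp1, a LIM protein that bundles actin with alpha-actinin, had 10.30 on both metastatic arrays, against 11.12 and 11.41 on the non-metastatic arrays, a difference of -0.96 (SE 0.14). Its other probe set had -0.83 (SE 0.14), and both kept the groups apart. Vcl, which encodes vinculin of focal adhesions, had 11.69 and 12.19 against 12.34 and 12.66, a difference of -0.56 (SE 0.20). The difference of Vcl was -0.31 without metastatic replicate 1, and its other probe set had -0.15 (SE 0.27). Actn1, which encodes the crosslinker alpha-actinin 1, had 11.83 and 12.47 against 12.67 and 12.71, a difference of -0.54 (SE 0.22). For Actn1 the value was -0.21 without metastatic replicate 1 and -0.86 without metastatic replicate 2. Smtn, which encodes smoothelin of contractile smooth muscle, had 8.01 and 8.18 against 8.46 and 8.48, a difference of -0.37 (SE 0.12).

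The remaining 6 anchor genes had differences between -0.27 and -0.01, and only Csrp2 of these, a LIM protein like Csrp1, did not overlap between groups, with a difference of -0.26 (SE 0.16). Des, the muscle intermediate filament desmin, had 7.25 and 7.77 against 7.39 and 7.92, a difference of -0.15 (SE 0.24) that was smaller than the gap between its replicates. Its other probe set, with a mean of 5.28, had 0.05 (SE 0.11). Flna, the filamin that links actin to integrins, had -0.27 (SE 0.23), and Pdlim7, Synpo2 and Pdlim3, which sit on actin bundles and Z-disc-like structures, had -0.08 (SE 0.19), -0.04 (SE 0.12) and -0.01 (SE 0.22). The sign of Des, Flna, Pdlim7 and Pdlim3 turned positive without metastatic replicate 1, at 0.11, 0.08, 0.18 and 0.23, and that of Des, Synpo2 and Pdlim3 without non-metastatic replicate 2, at 0.12, 0.05 and 0.22. Csrp2 had -0.46 without metastatic replicate 1 and -0.07 without metastatic replicate 2.

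Surface proteins and channels of mural cells did not move as 1 group. Mcam, or CD146, an adhesion molecule of pericytes and endothelium, had 6.40 and 6.97 in the metastatic group, against 7.49 and 7.98 in the non-metastatic group, a difference of -1.05 (SE 0.25, limma adjusted p = 0.511). Cspg4, the proteoglycan NG2 that marks pericytes, had 7.15 and 7.13 against 7.32 and 7.73, a difference of -0.39 (SE 0.16), and its other probe set had -0.60 (SE 0.21), both without overlap. Cspg4 had -0.59 without the first non-metastatic array and -0.18 without the second. The 4 channel genes had positive differences of at most 0.10, none beyond its SE. These were the KATP channel genes Abcc9 and Kcnj8, at 0.07 (SE 0.12) and 0.02 (SE 0.12), the L-type calcium channel gene Cacna1c at 0.09 (SE 0.13) and Kcnmb1, the beta subunit of the BK channel, at 0.10 (SE 0.11).

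All 4 channel genes had mean signals between 4.99 and 6.27, near or under the median of all probe sets, and a small difference at such signals does not show that expression was the same. Abcc9 turned to -0.02 without metastatic replicate 2, and Kcnj8 and Cacna1c to -0.08 and -0.03 without metastatic replicate 1. The other probe sets of Abcc9, both dim, had -0.26 (SE 0.11) and -0.01 (SE 0.11), that of Kcnmb1 had -0.25 (SE 0.12) and that of Cacna1c had -0.05 (SE 0.11). The sign thus differed among probe sets for these 3 genes, and no direction can be given for them.

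Most members with several probe sets were lower on all of them. There were 20 such genes, of which 6 had probe sets of both signs (Abcc9, Cacna1c, Des, Kcnmb1, Ppp1r12b and Tpm1) and 2 had differences more than 1 log2 unit apart (Mylk and Myocd). Of the 38 probe sets that did not represent a gene, 34 had a negative difference and 10 were lower at an unadjusted p under 0.05 (background 3.12% of all probe sets). Both metastatic arrays lay below both non-metastatic arrays on 21 of the 38, where 16% of all probe sets did so, and the opposite order held on 0, where 18.5% did. These probe sets read the same RNA as the chosen ones and add no replicates.

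**Figure D3:**
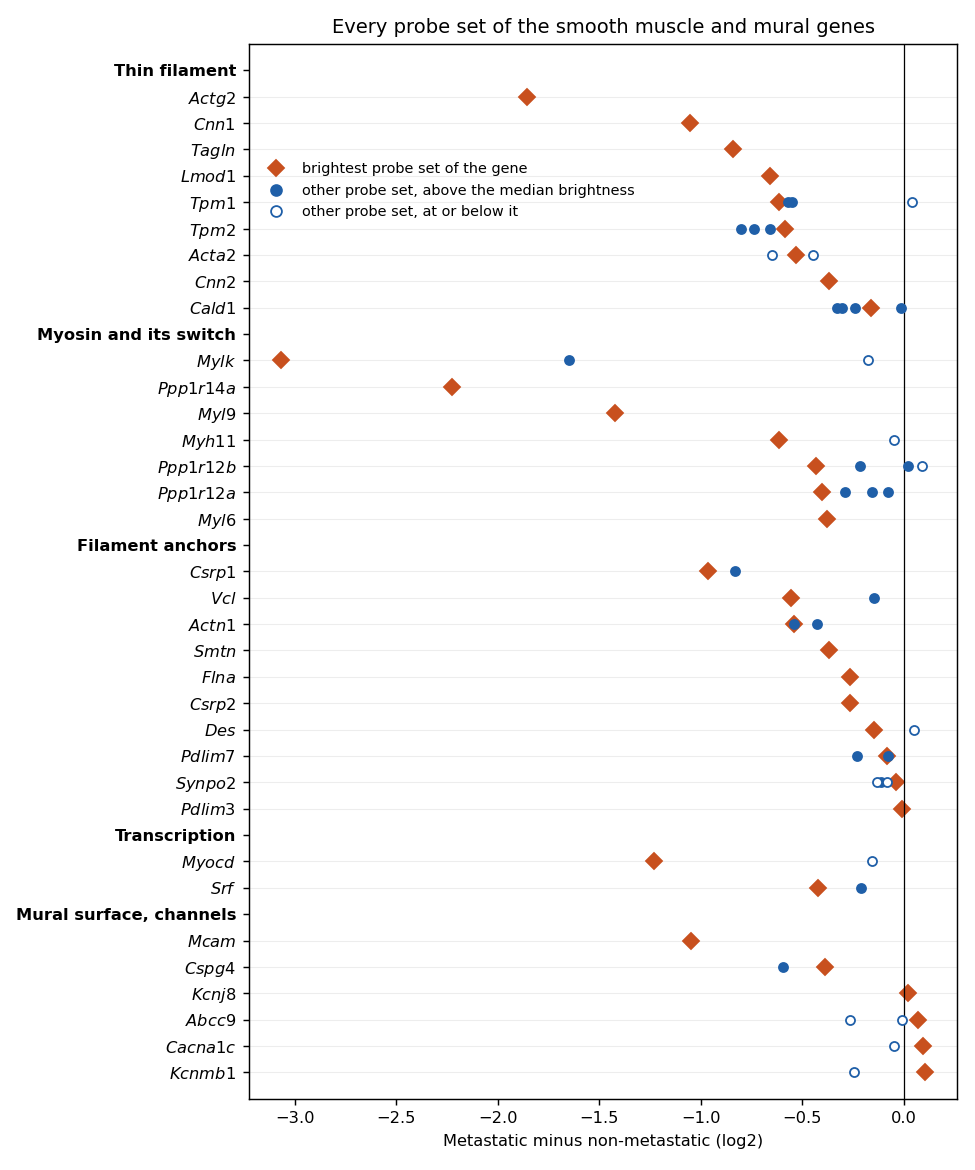
Difference between metastatic and non-metastatic arrays (log2, x axis) for all 72 probe sets of the 34 genes (y axis, by role), with diamonds for the brightest probe set of a gene, filled circles for other probe sets above the median brightness and open circles for dimmer ones. For Mylk the diamond stands at -3.07 and the other probe sets at -1.65 and -0.18, while the 4 probe sets of Tpm2 lie between -0.80 and -0.58.

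Replicate arrays differed more for these genes than for most. The median absolute gap between replicates was 0.24 for the metastatic pair and 0.18 for the non-metastatic pair, beside 0.18 and 0.11 over all genes. The median absolute difference between groups was 0.43 for the list and 0.10 over all genes. Metastatic replicate 1 was higher than replicate 2 for 9 of the 34 genes, and non-metastatic replicate 1 was higher than its replicate 2 for 7. Gaps over 0.5 log2 units between replicates were found for 10 genes in the metastatic group and for 5 in the non-metastatic group. Over all 18193 genes they were found for 1736 and 603. The largest gap among the 34 genes, for Tagln, was -1.09 between the metastatic replicates.

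The non-muscle forms of the same proteins, which most cells use for shape and movement, were measured on bright probe sets and had differences between -0.43 and 0.14. In the list of non-muscle actomyosin the difference was negative for 15 of 19 genes (background 50.1%) and positive for 4, and its median was -0.11. Groups did not overlap for 5 lower genes (26.3%, background 17.3%) and 0 higher ones (background 17.2%). In either direction 0 passed at an unadjusted p under 0.05 (background 4.07% lower, 2.63% higher) or after adjustment. The smallest p values were those of Myh9, a non-muscle myosin heavy chain, at -0.43 (SE 0.21), Zyx at -0.36 (SE 0.24) and Tln1 at -0.31 (SE 0.22). Without metastatic replicate 1 Zyx and Tln1 had -0.0079 and -0.002, and Myh9 had -0.19 without metastatic replicate 2. The difference between a muscle form and its counterpart was not tested.

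In the list of calcium, cGMP and channel genes 12 of 18 differences were negative and 6 positive, around a median of -0.11. At an unadjusted p under 0.05, 5 were lower (background 4.07%) and 1 was higher (background 2.63%). Without overlap between groups, 7 were lower (38.9%, background 17.3%) and 4 higher (22.2%, background 17.2%). Pde5a, the phosphodiesterase that breaks down cGMP, had 6.49 and 6.18 against 7.08 and 6.99, a difference of -0.70 (SE 0.14). Stim1, the calcium sensor of the endoplasmic reticulum, had -0.65 (SE 0.14) and Gucy1b1, a subunit of the nitric oxide receptor, -0.57 (SE 0.16). No gene of that list passed after adjustment over all probe sets.

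Mural cell genes outside the 34 were mixed. Of 24 measured, 15 had a negative and 9 a positive difference, around a median of -0.10. Without overlap between groups, 6 were lower (25%, background 17.3%) and 2 higher (8.33%, background 17.2%). At an unadjusted p under 0.05, 3 were lower (background 4.07%) and 0 higher (background 2.63%), and 0 passed after adjustment. Foxs1, a forkhead factor of pericytes, had 8.23 and 7.68 against 9.14 and 8.90, a difference of -1.06 (SE 0.21). The collagen-binding integrin gene Itga1 had 5.67 and 5.98 against 7.01 and 6.66, a difference of -1.01 (SE 0.18). Notch3, the Notch receptor of mural cells, had -0.39 (SE 0.11), through another probe set marked as not specific. Rgs5, a widely used pericyte marker named after its value was seen, was dim, with 4.52 and 4.72 against 4.55 and 4.63. The most positive difference of the list, 1.40 (SE 0.86) for Ndufa4l2, rested on 1 array, with 7.18 and 10.05 in the metastatic group, against 7.20 and 7.23 in the non-metastatic group.

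**Figure D4:**
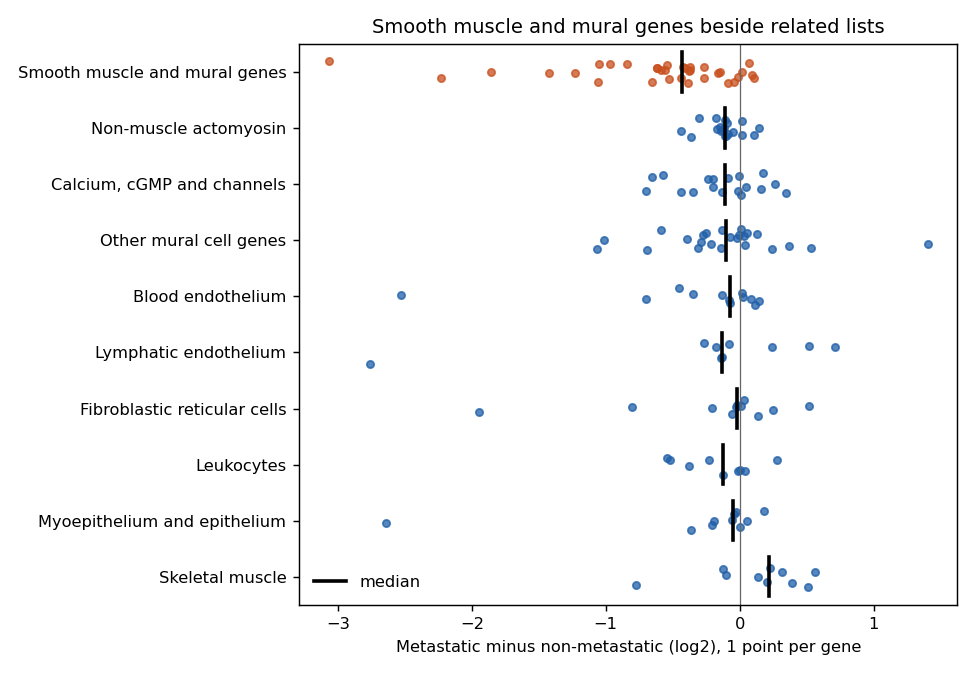
Difference between metastatic and non-metastatic arrays (log2, x axis), 1 point per gene, for the 34 smooth muscle and mural cell genes in orange and 9 other lists in blue (y axis), with black bars for medians. The orange median lies at -0.43, and the medians of the other lists lie between -0.13 and 0.22.

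Markers of other cell types that could carry contractile genes are given by the log2 of their summed signal. Fibroblastic reticular markers (11 genes) had 15.93 and 15.97 in the metastatic group, against 15.94 and 16.05 in the non-metastatic group, and these sums overlapped. Their median signals, 12.16 and 12.13 against 11.80 and 12.00, were higher in the metastatic group without overlap. Col1a2, Col1a1 and Col3a1 were the brightest of these markers, and the sums were not taken without them. The genes with the smallest p there were Pdpn at 0.51 (SE 0.11), Il7 at -0.81 (SE 0.18) and Cxcl13 at -1.95 (SE 0.69). Cxcl13 was lowest in metastatic replicate 2, with 9.84 and 7.58 against 10.48 and 10.83, and its difference was -0.81 without that array and -3.07 without metastatic replicate 1. Blood endothelial markers (12 genes) had sums of 9.64 and 9.55 against 10.36 and 9.94, lower without overlap. Their median signals, 5.80 and 5.65 against 6.11 and 5.68, overlapped. Smallest in p were Emcn at -2.53 (SE 0.29), Plvap at -0.46 (SE 0.23) and Cdh5 at -0.70 (SE 0.36). Emcn had 6.50 and 5.66 against 8.77 and 8.45, and the sums were not taken without it. Plvap and Cdh5 had -0.12 and -0.16 when non-metastatic replicate 1 was left out. Lymphatic markers (9 genes) had 11.31 and 11.29 against 11.05 and 10.98, of which Pdpn, the gene of the bead selection, made up 61.3% to 74.7%. Without Pdpn the lymphatic sums were 9.33 and 9.42 in the metastatic group, against 9.68 and 9.49 in the non-metastatic group, so the order of the groups turned. Beside Pdpn, the smallest p values were those of Lyve1 at -2.76 (SE 0.64), which had -1.74 without metastatic replicate 2, and Nrp2 at 0.71 (SE 0.24).

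Leukocyte markers (9 genes) had summed signals of 10.33 and 10.10 in the metastatic group, against 10.57 and 10.65 in the non-metastatic group. These sums lay in the direction of the contractile genes, but the median signals, 5.89 and 5.40 against 5.70 and 5.72, overlapped. Csf1r, the brightest of these markers, had 9.61 and 9.26 against 9.88 and 10.07, and the sums were not taken without it. The smallest p values were those of Csf1r at -0.54 (SE 0.16), Fcgr3, which encodes part of the CD16/CD32 target used for the depletion, at -0.52 (SE 0.17) and Itgam at 0.28 (SE 0.14), and Ptprc, the pan-leukocyte marker, had 4.28 and 4.01 against 4.13 and 4.08. Markers of epithelium and myoepithelium (10 genes), contractile cells of glands, had sums of 9.92 and 10.52 against 10.38 and 10.58, which overlapped. Median signals of these markers, 5.53 and 5.31 against 5.80 and 5.92, were lower in the metastatic group without overlap. Their genes of smallest p were Perp at -2.64 (SE 0.20), Krt14 at -0.37 (SE 0.20) and Krt18 at -0.21 (SE 0.13). Skeletal muscle markers (10 genes) had 9.72 and 11.62 against 9.27 and 11.64, low in replicate 1 and high in replicate 2 of both groups, with Myod1 at 0.56 (SE 0.19), Tnni2 at 0.39 (SE 0.33) and Myh2 at 0.14 (SE 0.12). The sign of Tnni2 turned when non-metastatic replicate 1 was left out, at -0.04. Differences were negative for 6 of 11 fibroblastic reticular, 7 of 12 blood endothelial, 6 of 9 lymphatic, 6 of 9 leukocyte, 7 of 10 epithelial and 3 of 10 skeletal muscle markers, and limma called 0 after adjustment. At an unadjusted p under 0.05 these lists held 2, 1, 1, 2, 1 and 0 lower genes, in that order, and 1, 0, 2, 0, 0 and 1 higher ones. Over all genes 50.1% of differences were negative, and 4.07% were lower and 2.63% higher at that threshold. The part of these cell types in the lower contractile signals was not tested.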

How the data were processed

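The authors deposited a log2 signal per probe set for 4 Affymetrix arrays, with array medians between 5.88 and 5.99 (control probe sets left out). Per the labels' protocols, a one-cycle biotin labelling was used. How probes were summarised, and whether arrays were normalized, is not given in the sources used here, and no detection calls were used. The number of arrays limits the precision.

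The arrays were quantile normalized, 64 control probe sets were left out, and 45037 probe sets were fitted with limma's lmFit and eBayes for the difference between metastatic and non-metastatic arrays (2 residual and 3.71 prior degrees of freedom). The Benjamini-Hochberg adjustment ran over all of them. Symbols came from the platform annotation, updated through Entrez numbers. In probe set names, s and x mark probes that can bind transcripts of several genes or variants, and a marks several transcripts of a gene; Acta2, Cald1 and Srf are represented by s probe sets and Actg2, Smtn, Tpm2, Mcam, Csrp1, Csrp2 and Cacna1c by a probe sets.

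The members and lists were chosen with earlier results of these data known. Array values are given for members with a difference of at least 0.5 log2 units or an unadjusted p under 0.05, and for Acta2, Myh11, Srf and Myocd. Some further members are given the same way. The 3 genes of smallest p are named for each of 9 other lists: non-muscle actomyosin, calcium, cGMP and channels, other mural genes, and markers of lymphatic and blood endothelium, fibroblastic reticular cells, leukocytes, epithelium and skeletal muscle. Another list is not reported here. The fit was tested on simulated data. Alternatives were the deposited values, centred medians, brighter probe sets, averaging all probe sets of a gene, unmarked probe sets, trended and robust moderation, the replicate number as a block and leaving out each array. R 4.3.3, limma 3.58.1, Python 3.11.15 and matplotlib 3.10.9 were used.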

Additional observations from a re-analysis of the deposited data

How the results depend on the processing

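With all 4 arrays kept, the alternatives had 12 to 22 members lower at an unadjusted p under 0.05 (3.52% to 5.77% of all genes). In those alternatives 0 members were higher at that threshold (2.14% to 3.79% of all genes). Across all alternatives, between 20 and 30 were lower without overlap (15% to 40.8% of all genes, with the 30 at 40.8%). Unmarked probe sets, which 29 members have, gave 12 and 20 lower (3.88% and 17.1% of all genes). Leaving out arrays for genes of other lists, and Pdpn for its lists, was chosen after seeing the data. Leaving out 1 array moved the median difference between -0.57 and -0.36, and 1 to 4 members were then higher without overlap, as were 28.5% to 38.8% of all genes. That number was 0 with the deposited values, with brighter probe sets only (30 members have one) and with probe sets averaged per gene. The shares of all genes there were 15%, 18.3% and 18.7%, in that order. After adjustment, limma called 1 member, Actg2, with trended and robust moderation (adjusted p = 0.0428, 5 probe sets in all). Without single arrays it called 0 to 1, Actg2 without metastatic replicate 1 (adjusted p = 0.0323, 65 in all). With 3 arrays, the single remaining array is taken to have the spread of the pair.

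With the replicate block, limma called 7 members (145 probe sets in all): Mylk, Actg2, Ppp1r14a, Myl9, Myocd, Cnn1 and Mcam, with adjusted p between 0.0033 and 0.0329. The labels state no pairing, and the correlation of same-numbered deviations, 0.25, is necessarily the same for both pairs. Over all probe sets the metastatic arrays correlated at 0.9908 with each other. They correlated at 0.9925 and 0.9932 with the same-numbered non-metastatic arrays. With the non-metastatic array of the other number, metastatic replicate 1 had 0.9909 and metastatic replicate 2 had 0.9916. The non-metastatic arrays had 0.9952 with each other. Whether same-numbered arrays were paired was not tested.

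Small differences changed sign, and the cause was not tested. Kcnj8 had -0.012 with the deposited values, Abcc9 -0.0678 and Kcnmb1 -0.0719 with probe sets averaged per gene, and Cacna1c -0.0487 with unmarked probe sets. Without single arrays the differences ran from -0.41 to 0.12 for Des, -0.33 to 0.0108 for Cald1, -0.0167 to 0.16 for Abcc9, -0.0838 to 0.12 for Kcnj8, -0.12 to 0.047 for Synpo2, -0.25 to 0.23 for Pdlim3, -0.34 to 0.18 for Pdlim7, -0.60 to 0.0753 for Flna and -0.027 to 0.21 for Cacna1c. With probe sets averaged per gene Mylk had -1.63 and Myocd -0.69.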

Other observations

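Some genes went with the replicate number in both groups. Acta1, the skeletal muscle actin, had log2 signals of 8.42 and 11.19 on metastatic replicates 1 and 2, against 8.07 and 11.13 on non-metastatic replicates 1 and 2. Myog, a factor of muscle precursors, had 6.09 and 7.34 against 5.23 and 7.18. Among the 34 smooth muscle and mural genes, replicate 2 was higher in both groups for 19 and replicate 1 in both for 1. The same counts were not taken over all genes, so they cannot be called particular to these. Cnn1 had 6.47 and 7.23 against 7.54 and 8.26, Myl9 had 10.62 and 11.32 against 12.16 and 12.63, and Mcam had 6.40 and 6.97 against 7.49 and 7.98. Des had 7.25 and 7.77 against 7.39 and 7.92, and Pdlim3 had 5.72 and 6.20 against 5.74 and 6.20. In these 7 genes, picked after their values were seen, replicate 2 was the higher array in both groups.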
